A study of Rattus norvegicus with 12 samples.

Results

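The response of INS-1 cells to inflammatory cytokines in the absence of a BET inhibitor was taken as the comparison of cells given a cytokine cocktail and vehicle (CCVC) with cells given vehicle alone (VC). It was read from the log2 ratio of the mean FPKM values after adding 1 FPKM, over those listed genes whose mean across the 4 groups of the study reached 1 FPKM, which were 8795 of 9694. FPKM counts the fragments of a gene scaled to its length and to the fragments of the library. INS-1 cells derive from a rat insulin-producing tumour and stand in for β-cells in culture, and all groups were of this line in the same medium. Of 12 β-cell markers 10 were measured, with Ins1, an insulin gene, at 10243 FPKM in CCVC and 11528 FPKM in VC. At 1.5-fold, 5 of these markers were lower in CCVC than in VC and 0 higher.

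The CCVC cells received vehicle for 48 h, then the cocktail with vehicle still present (in ng/mL, 10 of IL-1β, 100 of IFN-γ and 25 of TNF-α), and the VC cells received vehicle without cytokines. Cytokines were present for 8 h by the treatment protocol and by the published account of the sequenced cells, although the design text places them in the last 24 h of 72 h. The study also had cytokines with the BET inhibitor I-BET762 at 500 nM (CCIB) and I-BET762 alone (IB), and each of the 4 groups had 3 libraries. The labels do not say that libraries came from separate cultures, so any p-value measures only the spread between libraries.

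IL-1β and TNF-α bind receptors whose signalling frees NF-κB to enter the nucleus, where it switches on chemokines, adhesion molecules and its own inhibitors. IFN-γ signals through JAK kinases, and the response to it includes interferon regulatory factors, antigen presentation and antiviral GTPases. In β-cells these cytokines together are known to induce nitric oxide, stress of the endoplasmic reticulum and loss of insulin secretion.

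The deposited columns are group means, but the whole fragments of each library could be worked out from their printed digits for 6357 of the 8795 genes (72.3%) in both groups. The CCVC libraries held 22342774, 24568117 and 24919589 fragments and the VC libraries 22670897, 24227185 and 24852788. Library profiles correlated at 0.985 to 0.989 within the groups and at 0.883 to 0.900 between them, across genes, which are not independent replicates. They cover recovered genes only, so the limit on recovery given below partly fixes the agreement within groups. The authors' selection of the listed genes, also given below, favours a gap between groups. Abundant genes were seldom recovered (78 of 805 genes at 100 FPKM or more in VC), and for these the means are given without error or test. For the recovered genes the libraries were compared with limma on log2(FPKM + 1), where "rose" and "fell" below stand for an adjusted p under 0.05. Every listed gene had already been called by the authors in some comparison, so the adjusted values are too small for a genome-wide test. Recovery also kept only genes whose libraries lie within 20% of their group mean or within 8 counting SDs, which limits the spread the test can see.

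By the group means, 1223 genes were at least 1.5-fold higher in CCVC than in VC (13.9% of the genes) and 900 were at least 1.5-fold lower (10.2%). The higher genes reached further. At 4-fold there were 124 higher and 16 lower genes, and at 8-fold 40 higher and 2 lower. The median log2 ratio over all genes was -0.01, with a 1st percentile of -1.34 and a 99th percentile of 2.36. With limma, 2001 of the 6357 recovered genes rose (31.5%) and 1976 fell (31.1%), most of them by less than 1.5-fold. Of the 886 recovered genes at 1.5-fold or more higher 882 passed the test, as did 665 of the 667 lower ones, but for well-covered genes of this size a pass and separate library ranges are largely fixed by the limit on recovery and lend no further support.

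**Figure D1:**
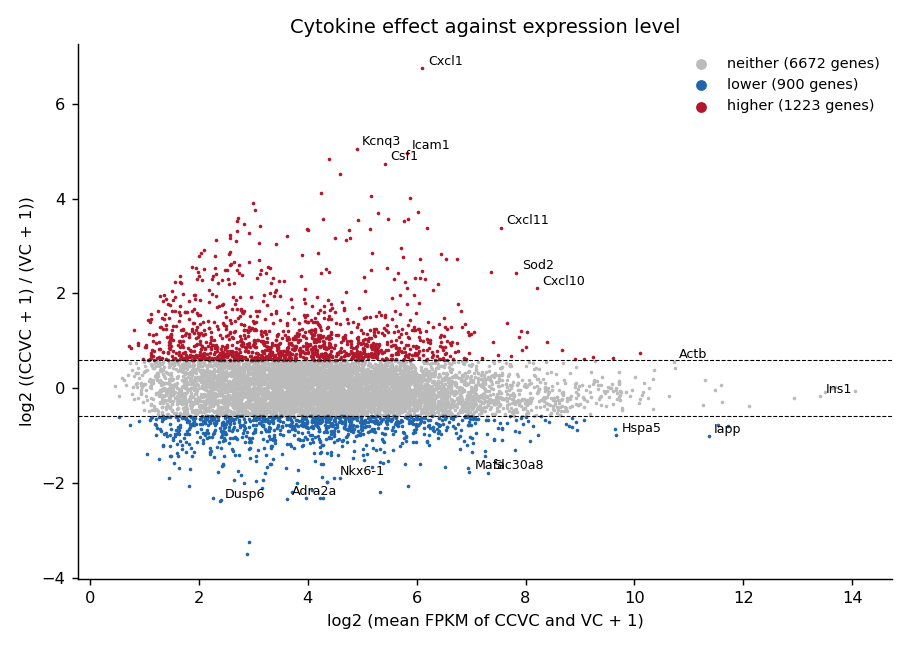
Log2 ratio of CCVC to VC (y axis) against the log2 mean FPKM of the 2 groups plus 1 (x axis), 1 point per gene for 8795 genes. Dashed lines mark 1.5-fold, the 1223 higher genes are red and the 900 lower genes blue, and the highest ratios lie at low and middle levels of expression.

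Direction went with level in VC. Among the 805 genes at 100 FPKM or more in VC, 18 were higher and 109 lower in CCVC, with a median log2 ratio of -0.23. Among the 1390 genes between 1 and 5 FPKM in VC, 370 were higher and 135 lower (median 0.22). VC enters both these bins and the ratio, which by itself ties one to the other. Higher genes together took 10.1% of all CCVC fragments and 4.72% of VC fragments, and lower genes took 4.64% in CCVC and 8.53% in VC. Lower genes were also shorter, with a median length of 1660.5 bases against 2203.5 bases for genes in neither class and 2271 bases for higher genes. What part gene length has in this was not tested.

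Some genes that were nearly silent in VC were well expressed in CCVC. There were 48 genes at 5 FPKM or more in CCVC and under 1 FPKM in VC, against 5 genes the other way. Cd69, which encodes a C-type lectin best known from activated lymphocytes, had 34.7, 39.5 and 44.9 FPKM in CCVC libraries and 0.412, 0.437 and 0.452 FPKM in VC libraries. Limma gave a log2 change of 4.82 ± 0.12 (SE, n = 3 each, adjusted p = 6.3e-10). Cd69 was named for its ratio in these same libraries, and the limit on recovery applies to it. Its SE and p-value are therefore descriptive and lend no further support, as are those of the genes named below. Zc3h12a, an RNase that degrades cytokine messages, had 42.9, 46.6 and 46.9 FPKM in CCVC and 0.555, 0.958 and 1.58 FPKM in VC, and rose by 4.55 ± 0.16 on the log2 scale (SE, limma adjusted p = 3.1e-09). The only leucocyte marker measured of 17, Cd4, was at 1.74 FPKM in CCVC and 1.73 FPKM in VC.

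Chemokines, cytokines and growth factors had the highest median ratio of the lists, and 1 of them, Cxcl1, the highest ratio of all genes named. Of 44 measured genes, 33 were higher and 1 was lower (75% and 2.27%, against 13.9% and 10.2% of all genes, median log2 ratio 1.33). Of 31 recovered genes 26 rose and 2 fell. Ccl1, which attracts monocytes and T cells, had 10.7, 15.6 and 15.6 FPKM in CCVC libraries and 0 in each VC library. Tnf, the gene of one of the cytokines added, had 14.2, 14.4 and 16.1 FPKM in CCVC and 0.289, 0.344 and 0.815 FPKM in VC, and rose (limma adjusted p = 1.5e-08). The neutrophil-attracting Cxcl2 and Cxcl3, neighbours of Cxcl1 on chromosome 14, also rose, with Cxcl2 at 10.7 to 13.0 FPKM in CCVC and 0 to 0.328 FPKM in VC. Cxcl10 and Cxcl11, ligands of the receptor CXCR3 on T cells, had group means of 481 and 339 FPKM in CCVC, against 111 and 31.6 FPKM in VC.

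**Figure D2:**
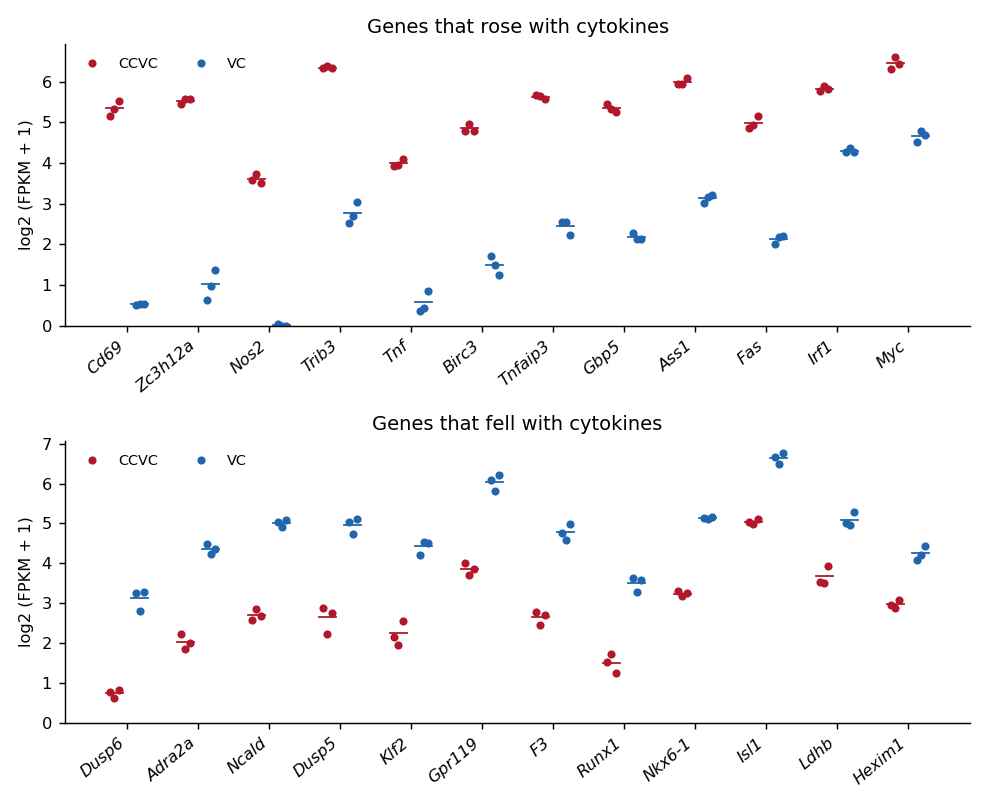
FPKM of each library as log2(FPKM + 1) for 12 genes that rose (upper panel) and 12 that fell (lower panel), with CCVC in red to the left of VC in blue, points for the 3 libraries of a group and a line at the group mean. In all 24 genes the 3 CCVC libraries lie on one side of the 3 VC libraries, which the limit on recovery partly fixes.

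Most recovered NF-κB subunits and feedback inhibitors rose. Of 26 measured genes 18 were higher and 0 lower (69.2%, median 0.87), and 17 of 20 recovered genes rose, 0 fell and 3 did not pass. Tnfaip3, which encodes the ubiquitin-editing inhibitor A20, had 46.4, 49.2 and 49.9 FPKM in CCVC and 3.72, 4.86 and 4.89 FPKM in VC. Birc3, an inhibitor of apoptosis induced by NF-κB, had 26.5, 26.9 and 30.2 FPKM in CCVC and 1.37, 1.82 and 2.26 FPKM in VC. Both rose, by 3.18 ± 0.10 for Tnfaip3 and 3.37 ± 0.13 for Birc3 on the log2 scale (SE, limma, adjusted p = 1.7e-09 and 6.4e-09). Among receptors and proximal signalling genes 17 of 30 were higher and 1 lower (56.7% and 3.33%, against 13.9% and 10.2% of all genes, median 0.64). The death receptor Fas rose, with 28.0, 29.8 and 34.7 FPKM in CCVC and 3.04, 3.53 and 3.64 FPKM in VC.

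Genes of the interferon response formed the largest set of higher genes among the lists. Of 60 antiviral and GTPase genes 44 were higher and 0 lower (73.3%, median 1.01), and 34 of 36 recovered genes rose. Gbp5, an interferon-induced GTPase that restricts intracellular microbes, had 37.4, 39.5 and 42.6 FPKM in CCVC and 3.38 to 3.87 FPKM in VC. Of 29 genes of JAK-STAT signalling, interferon regulatory factors and SOCS proteins, 12 were higher (41.4%, against 13.9% of all genes) and 0 lower. Irf1, a first-wave transcription factor of the IFN-γ response, had 53.2, 55.6 and 58.1 FPKM in CCVC and 18.2, 18.2 and 19.8 FPKM in VC, and rose by 1.52 ± 0.08 (log2, SE, limma adjusted p = 4.6e-08).

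Of 35 genes of MHC antigen presentation and the immunoproteasome, 22 were higher (62.9%, against 13.9% of all genes) and 0 lower. The 25 genes of a list of the constitutive proteasome had 0 in either direction at 1.5-fold. That list was matched by symbol and also holds the assembly chaperone Psmg1, the inhibitor Psmf1 and the recombination gene Psmc3ip. The immunoproteasome subunit Psmb8 had 26.8, 27.7 and 28.0 FPKM in CCVC and 5.97, 6.25 and 7.49 FPKM in VC, and the peptide transporter Tap1 had 31.1, 31.7 and 34.1 FPKM in CCVC and 8.11, 8.57 and 9.58 FPKM in VC. These genes stand next to one another. On chromosome 20, 7 of 7 measured genes in a stretch of 222 kb were at least 2-fold higher, among them Psmb9, Tap1, Psmb8 and Tap2. In all, 12 runs of at least 3 such genes, each within 200 kb of the next, held 44 of the 524 genes higher at 2-fold. Among the 229 genes lower at 2-fold, the only run was 4 mitochondrial transfer RNA rows. Fewer lower genes leave room for fewer runs, and how many runs such numbers of genes would give by position alone was not tested. Near-identical MHC genes (RT1) may share reads.

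Among higher genes, the share of promoter windows with a κB motif was larger at larger ratios. RefSeq windows of 300 bases (250 before to 50 after the start, GRCr8) matched 6353 of 8795 genes by Ensembl identifier or, failing that, by symbol. A κB motif on either strand stood in 29.3% of the windows of genes at 4-fold or more higher (22 of 75), in 22.0% at 2-fold, in 17.0% at 1.5-fold, in 9.08% of genes in neither class and in 11.7% of lower genes, against 10.4% of all measured genes and 7.51% of all RefSeq windows. The interferon-stimulated response element GAAANNGAA was in 12%, 14.8% and 11.2% of genes higher at 4-fold, 2-fold and 1.5-fold, against 6.89% of all measured genes and 9.71% of all RefSeq windows. The gamma-activated site TTCNNNGAA was in 5.33%, 7.24% and 6.37% of the same sets, against 6.25% of all measured genes and 8.87% of all RefSeq windows. These are matches of letters, with no test and no evidence of binding. The 4 windows below were picked by high ratio among genes whose window holds a match of the motif. Genes of higher ratio without such a match are therefore not shown. The match is in capitals, a κB motif in Cxcl1 and Cxcl2, a response element in Gbp2 and a gamma-activated site in Icam1, from RefSeq GRCr8.
Cxcl1, chr14:17479272-17479571, minus strand: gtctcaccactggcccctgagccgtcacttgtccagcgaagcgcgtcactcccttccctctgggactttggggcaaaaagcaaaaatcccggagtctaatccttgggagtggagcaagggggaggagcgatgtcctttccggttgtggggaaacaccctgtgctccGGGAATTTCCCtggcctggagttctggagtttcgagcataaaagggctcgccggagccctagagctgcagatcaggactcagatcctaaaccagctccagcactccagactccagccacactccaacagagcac
Cxcl2, chr14:17467206-17467505, minus strand: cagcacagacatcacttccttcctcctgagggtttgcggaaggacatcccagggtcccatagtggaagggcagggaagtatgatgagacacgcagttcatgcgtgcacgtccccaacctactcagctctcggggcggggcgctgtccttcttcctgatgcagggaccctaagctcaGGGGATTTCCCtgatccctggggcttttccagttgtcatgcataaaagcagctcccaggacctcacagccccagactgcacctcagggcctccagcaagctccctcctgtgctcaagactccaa
Gbp2, chr2:234005477-234005776, plus strand: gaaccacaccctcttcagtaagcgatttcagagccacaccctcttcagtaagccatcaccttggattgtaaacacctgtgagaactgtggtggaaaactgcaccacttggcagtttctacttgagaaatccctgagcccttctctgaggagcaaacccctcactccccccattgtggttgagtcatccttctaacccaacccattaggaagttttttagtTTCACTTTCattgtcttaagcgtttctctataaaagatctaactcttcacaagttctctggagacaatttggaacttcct
Icam1, chr8:27829595-27829894, plus strand: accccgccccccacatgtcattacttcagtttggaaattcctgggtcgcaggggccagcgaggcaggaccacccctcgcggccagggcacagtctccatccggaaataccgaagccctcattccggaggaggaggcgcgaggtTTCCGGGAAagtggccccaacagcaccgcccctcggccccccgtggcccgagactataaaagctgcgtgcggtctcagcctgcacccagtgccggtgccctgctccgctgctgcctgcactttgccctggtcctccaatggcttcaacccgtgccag

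**Figure D3:**
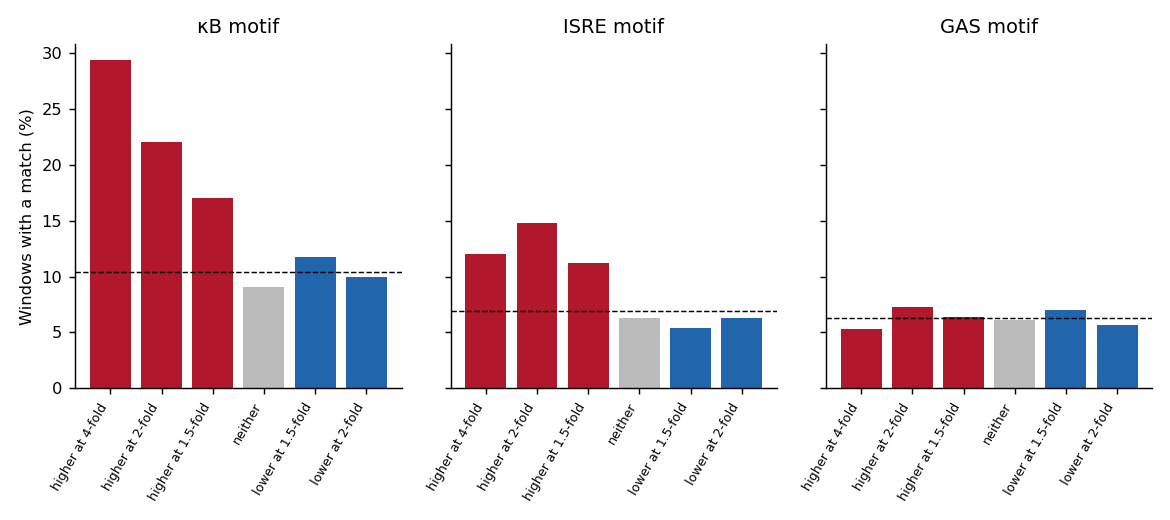
Share of 300-base promoter windows with a match (y axis, percent) for the κB, ISRE and GAS motifs, in genes grouped by the size of their ratio, with the dashed line at the share of all measured genes. The κB share stands at 29.3% for genes higher at 4-fold and at 9.08% for genes in neither class.

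The nitric oxide genes moved unevenly. Nos2, the inducible synthase, had 10.3, 11.0 and 12.3 FPKM in CCVC libraries and 0, 0 and 0.0263 FPKM in VC libraries, and a second row named NOS2 gave like values. Ass1, which remakes arginine for the synthase, had 60.3, 61.0 and 67.5 FPKM in CCVC and 7.12, 7.94 and 8.33 FPKM in VC, and rose (limma adjusted p = 1.2e-09). Ddah2, which breaks down an inhibitor of the synthase, fell, with 9.25, 10.5 and 10.6 FPKM in CCVC and 23.6, 24.1 and 28.1 FPKM in VC. Gch1, whose product makes a cofactor of the synthase, had means of 79.7 FPKM in CCVC and 136 FPKM in VC. Sod2, the mitochondrial superoxide dismutase, had means of 383 FPKM in CCVC and 69.8 FPKM in VC.

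The stress lists went opposite ways. Of 32 sensors and integrated stress response genes 18 were higher and 0 lower (56.25% higher, against 13.9% of all genes, median 0.70). Of 55 genes of endoplasmic reticulum folding, degradation and translocation 0 were higher and 16 lower (29.1% lower, against 10.2% of all genes, median -0.43). Trib3, a pseudokinase induced by ATF4, had 79.3, 80.1 and 82.3 FPKM in CCVC and 4.8, 5.48 and 7.19 FPKM in VC. Chac1, a glutathione-degrading enzyme of the same arm, had 65.8, 69.6 and 80.1 FPKM in CCVC and 3.39, 4.58 and 5.98 FPKM in VC. Both rose, by 3.59 ± 0.11 for Trib3 and 3.71 ± 0.15 for Chac1 (log2, SE, limma, adjusted p = 1.7e-09 and 7.1e-09). Atf3 rose as well, with 21.9 to 25.7 FPKM in CCVC and 4.38 to 5.48 FPKM in VC. The heat shock proteins, another chaperone class, had 0 of 18 genes past 1.5-fold in either direction. Among pro-apoptotic genes 8 of 24 were higher and 1 lower (33.3% and 4.17%). However, their median was -0.11, and of 17 recovered genes 7 rose and 5 fell. Bbc3, which encodes the BH3-only protein PUMA, rose, at 35.5 to 38.7 FPKM in CCVC and 10.1 to 12.4 FPKM in VC. Bnip3, a mitochondrial protein of the BCL2 family, fell, at 32.9 to 35.4 FPKM in CCVC and 70.9 to 84.3 FPKM in VC. Among anti-apoptotic genes 7 of 18 were higher and 2 lower (38.9% and 11.1%, against 13.9% and 10.2% of all genes).

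The circadian clock list stood high, with 12 of 18 genes higher (66.7%, against 13.9% of all genes), 0 lower and a median of 0.72. Bhlhe40, a repressor in the clock loop, had 80.2, 83.0 and 96.4 FPKM in CCVC and 35.6, 36.1 and 37.9 FPKM in VC. Nr1d1, which encodes the receptor REV-ERBα, had means of 19.4 FPKM in CCVC and 4.57 FPKM in VC. Of 15 recovered clock genes 11 rose and 1 fell, where 31.5% of all recovered genes rose and 31.1% fell.

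The lists of β-cell transcription factors and granule genes held more lower than higher genes, while the shares of exocytosis machinery were close to those of all genes. Of 32 β-cell transcription factors 10 were lower and 2 higher (31.3% and 6.25%, median -0.26). Of the 18 genes of granule cargo and prohormone processing 5 were lower and 0 higher (27.8% and 0%). Of 44 exocytosis genes 6 were higher and 4 lower (13.6% and 9.09%, against 13.9% and 10.2% of all genes). Of 29 genes of glucose sensing and triggering 3 were higher and 5 lower (10.3% and 17.2%). Nkx6-1, a homeodomain factor of mature β-cells, had 7.98, 8.47 and 8.83 FPKM in CCVC and 33.8, 34.3 and 34.9 FPKM in VC, with a log2 change of -1.91 ± 0.08 (SE, limma adjusted p = 1.2e-08). Bhlha15, which encodes the secretory-cell factor MIST1, fell too, with 6.02 to 7.10 FPKM in CCVC and 15.0 to 17.1 FPKM in VC. Ins1, whose means are given above, had a log2 ratio of -0.17. Of the 10 measured β-cell markers 5 were lower and 0 higher (50% lower, against 10.2% of all genes, median -0.63). They were Nkx6-1, Slc30a8 (log2 ratio -1.79), Mafa (-1.78), Pdx1 (-1.28) and Iapp (-1.01), of which only Nkx6-1 was tested.

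The list of receptors and second messengers of secretion held more lower than higher genes, 13 against 8 of 39. These shares were 33.3% and 20.5%, against 10.2% and 13.9% of all genes. The receptor gene Adcyap1r1 was among the higher ones, with means of 72.5 FPKM in CCVC and 18.8 FPKM in VC. Adra2a had the lowest ratio of the list (log2 -2.33), with means of 3.07 FPKM in CCVC and 19.5 FPKM in VC. Gpr119, a lipid receptor that promotes insulin release, had 12.1, 13.5 and 15.0 FPKM in CCVC and 55.2, 67.0 and 73.1 FPKM in VC, and fell (log2 -2.18 ± 0.11, SE, limma adjusted p = 5.5e-08). Ffar3, a short-chain fatty acid receptor outside this list, had 6.84 to 7.65 FPKM in CCVC and 28.5 to 34.8 FPKM in VC. Irs2, an adaptor of insulin signalling, had means of 19.8 FPKM in CCVC and 61.3 FPKM in VC. The MAPK feedback and immediate-early list was split, with 12 of 48 higher and 13 lower (25% and 27.1%, both above the shares of all genes). Myc rose, with 79.0 to 96.0 FPKM in CCVC and 21.8 to 26.6 FPKM in VC, while the ERK phosphatase gene Dusp5 fell, with 3.67 to 6.39 FPKM in CCVC and 25.6 to 33.4 FPKM in VC.

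**Figure D4:**
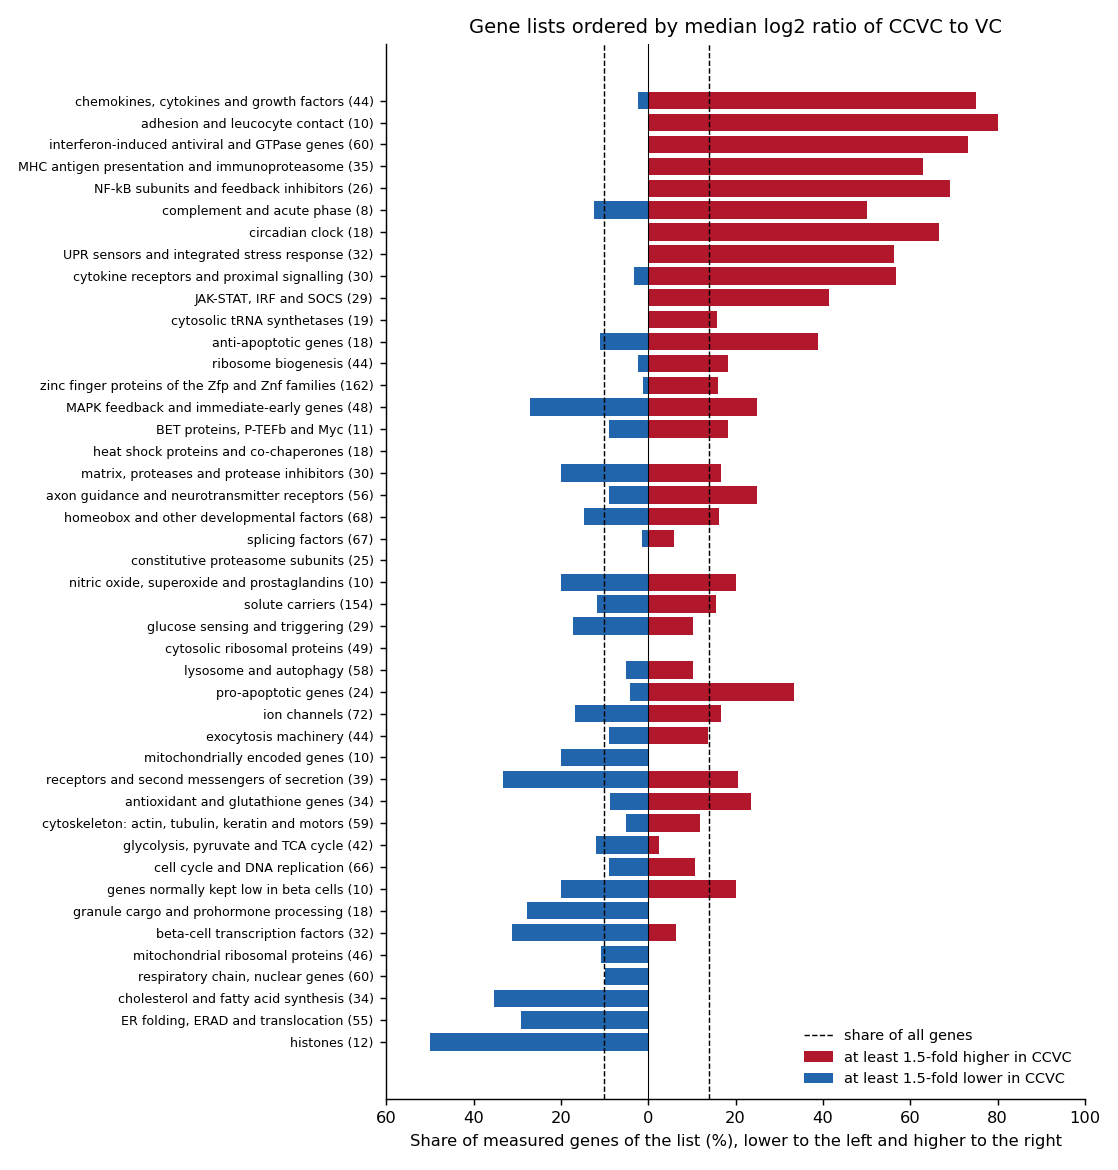
Share of each gene list, cell type marker lists left out, at least 1.5-fold higher (red, to the right) or lower (blue, to the left) in CCVC than in VC. The number of measured genes is in brackets, and lists are ordered by median log2 ratio. Dashed lines mark 13.9% higher and 10.2% lower over all genes. Most inflammatory and interferon lists stand at or near the top, and histones are at the bottom of the lists shown.

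Several metabolic lists had medians somewhat below that of all genes. Of 60 nuclear genes of the respiratory chain 0 were higher and 6 lower (10%, close to the 10.2% of all genes, median -0.40), and of 34 recovered genes 23 fell and 1 rose, where 31.1% of all recovered genes fell. Of 46 mitochondrial ribosomal protein genes 5 were lower (10.9%) and 0 higher (median -0.29), while the 49 cytosolic ribosomal protein genes had 0 in either direction. Cholesterol and fatty acid synthesis had 12 of 34 lower and 0 higher (35.3% lower, against 10.2% of all genes, median -0.42). Among these lower genes was Stard4, a carrier of cholesterol, with 13.8 to 15.5 FPKM in CCVC and 28.5 to 33.5 FPKM in VC. Histone genes had 6 of 12 lower (50%, against 10.2% of all genes, median -0.58), and all 8 recovered ones fell. H2afx, the variant phosphorylated at DNA breaks, had 14.8, 15.6 and 16.0 FPKM in CCVC and 29.7, 37.5 and 38.6 FPKM in VC. Of 44 ribosome biogenesis genes 8 were higher (18.2%, against 13.9% of all genes) and 1 lower, with a median of 0.28, and of 38 recovered genes 25 rose, where 31.5% of all recovered genes rose, and 4 fell.

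The same cytokines in I-BET762-treated cells (CCIB against IB) share no libraries with this comparison. There, 1136 genes were higher (12.9%) and 1138 lower (12.9%). Of the genes higher in CCVC than in VC, 891 were also higher in CCIB than in IB, which is 72.9% of the first list and 78.4% of the second, and 662 lower genes were shared, 73.6% and 58.2%. Across the 8795 genes the log2 ratios correlated at 0.889 (Pearson) and 0.878 (Spearman). The difference of the effects passed limma in 105 of the 6007 genes recovered in all groups (1.75%). Trib3 and Chac1, whose difference could not be tested because their IB libraries were not recovered, showed a smaller ratio there. Chac1 had a log2 ratio of 3.69 without I-BET762 and 1.17 with it. Its means were 71.8 FPKM in CCVC and 61.1 FPKM in CCIB, but 4.65 FPKM in VC and 26.5 FPKM in IB. Trib3 had means of 80.6 FPKM in CCVC and 67.1 FPKM in CCIB, but 5.83 FPKM in VC and 27.7 FPKM in IB. In both genes the smaller ratio thus went with a higher mean in IB than in VC, and the levels with cytokines were closer.

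**Figure D5:**
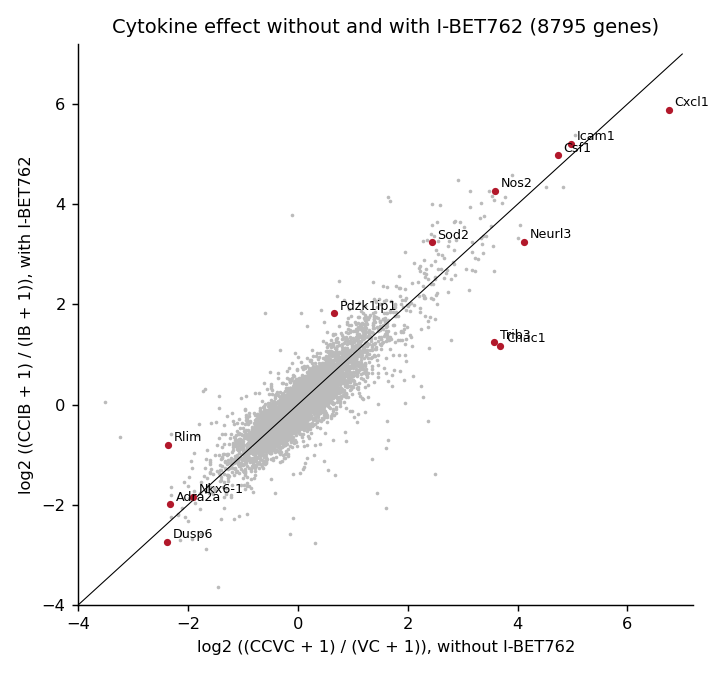
Log2 ratio of CCIB to IB (y axis, with I-BET762) against log2 ratio of CCVC to VC (x axis, without I-BET762), 1 point per gene for 8795 genes, with named genes in red and a line of equal ratios. Most genes follow the line, and Trib3 and Chac1 lie below it, Chac1 at 3.69 without and 1.17 with I-BET762.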

How the data were processed

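The authors aligned reads of 12 libraries with HISAT2 and deposited 1 table of FPKM values, each the mean of the 3 libraries of a group, limited to 9694 genes past their own adjusted p of 0.05. DESeq2 is named in the submitters' notes, and no versions or genome build are given in the sources used here. Gene lengths in bases came from the same table. The genes, 49 lists and tests were chosen with earlier results of these data known.

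Log2 ratios of group means used a pseudocount of 1 FPKM and a minimum mean of 1 FPKM, and counts of genes at 1.5-fold, which carry no error, are the planned result. The columns used here hold no single libraries. After the values were seen, it was found that a group mean printed to 12 digits equals a sum of whole fragments over 3 whole library totals, which has 1 solution for most genes. Solutions were sought with libraries within 20% of their mean or 8 counting SDs. This was the second setting tried. The first, a window of 30% with at most 0.02 expected chance solutions, recovered 5811 genes in CCVC and 5891 in VC. After this yield was seen, the window was narrowed to 20% and the limit on chance solutions loosened to 0.1, which gave 7376 and 7404. The narrower window allows less spread between libraries. No gene recovered under both settings differed. Library counts listed by the authors were at hand for 1272 recovered CCVC genes and 1284 CCIB genes, and 0 differed from the recovered ones. The counts of a gene were compared regardless of which library they came from, and VC counts were not checked in this way. Genes whose libraries differ by more than the window, deep genes and genes with another length than the listed one are missing from the test, so the spread may be understated. Libraries were numbered by total, not by the labels' replicate numbers.

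The limma test (limma 3.58.1, R 4.3.3, trend, Benjamini-Hochberg) on log2(FPKM + 1) of recovered libraries was therefore added after seeing the data, and adjusts over genes that the authors had already selected. Genes named are the 20 largest ratios each way at 5 FPKM or more, the 10 largest FPKM differences each way and, of each list, up to 6 members with the largest ratios and the most abundant one. Their SEs and p-values come from the same libraries that picked them. Other members of small lists of up to 12 genes may be named. Calculations were tested on simulated data. Python 3.11.15, numpy 2.4.6, pandas 2.3.3 and matplotlib 3.10.9 were used.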

Additional observations from a re-analysis of the deposited data

Results flagged for a closer look

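In 3 of the named genes the cytokine effect without I-BET762 differed from that with I-BET762 by a limma test of the difference itself, on recovered libraries and adjusted over 6007 genes. Neurl3, which encodes a neuralized-family ubiquitin ligase, had means of 35.0 FPKM in CCVC and 1.07 FPKM in VC, against 20.1 FPKM in CCIB and 1.23 FPKM in IB, a difference of 0.89 on the log2 scale (adjusted p = 0.038). Nos2 had 11.2 FPKM in CCVC and 0.00878 FPKM in VC, against 18.8 FPKM in CCIB and 0.0337 FPKM in IB, a difference of -0.66 (adjusted p = 0.043). Cxcl2 had 12 FPKM in CCVC and 0.172 FPKM in VC, against 20.6 FPKM in CCIB and 0.118 FPKM in IB, a difference of -0.79 (adjusted p = 0.046). These calls rest on the pseudocount of 1 FPKM. With 0.1 FPKM, tried after seeing the data, the differences were 1.04, -0.47 and -0.95 with adjusted p of 0.11 for Neurl3, 0.50 for Nos2 and 0.45 for Cxcl2, and 94 genes passed in place of 105, 85 of them shared. The libraries held 2 Nos2 fragments in all in VC and 8 in IB, so its fold changes, and the direction of their difference, cannot be read from these values.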

How the results depend on the processing

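Among the alternatives run, only the fold criterion moved the counts of higher and lower genes by over 1.5 times. At a log2 ratio of 0.32 in place of 0.58 (1.5-fold), 2343 genes were higher and 2249 lower, and at 2-fold 524 were higher and 229 lower, so the higher share of the calls was 51.0% and 69.6%, against 57.6% at 1.5-fold. A pseudocount of 0.1 FPKM, 3 other minimums, centring on the median and upper quartile scaling gave 881 to 1409 higher and 685 to 1067 lower genes, and the sign of 0 of 49 list medians turned under the 2 scalings. The pseudocount of 0.1 FPKM moved 34 of 344 named log2 ratios by over 1.5-fold, each of a gene with a low mean in CCVC or VC, such as Cd69 (6.22 in place of 4.83), Zc3h12a (5.33 in place of 4.52), Tnf (4.68 in place of 3.42), Cxcl2 (5.48 in place of 3.47) and Nos2 (6.70 in place of 3.60). With limma, leaving out each library in turn gave 1720 to 1943 genes that rose and 1651 to 1931 that fell, and 1541 to 1550 of the 1559 genes past both the test and 1.5-fold by limma's own estimate still passed, although the limit on recovery favours this. The recovery setting tried first tested 4762 genes, of which 1385 rose and 1411 fell, and all 1242 of those 1559 genes that it could test passed again. Centring the libraries gave 1784 and 2208. No paired analysis was possible because libraries recovered from a mean carry no replicate number. Genes above about 100 FPKM in VC are mostly untested.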
